A study of Homo sapiens
Mus musculus with 16 samples.

Results

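This account describes 32 genes of mitosis as they were measured in the host tissue of human bladder tumours grown in mice. They were taken by symbol from a list of mitotic regulators, all 32 were found among the 23337 genes of the mouse table, and the same 32 symbols were also found among the 23368 genes of the human table. The tumours were xenografts of ScaBER, an established human line of bladder squamous carcinoma, in athymic nude mice (strain Hsd:Athymic Nude-Foxn1nu), which lack a thymus and so have few mature T cells but keep other immune cells. After 14 days, 4 libraries each were made from tumours given both drugs (nintedanib at 40 mg/kg with alpelisib at 25 mg/kg), nintedanib alone at 40 mg/kg, alpelisib alone at 25 mg/kg, or vehicle. Nintedanib inhibits the kinases of the VEGF, PDGF and FGF receptors, which endothelial cells and stromal cells carry, while alpelisib blocks the p110 alpha form of PI3K downstream of many such receptors. The labels do not say where the tumours grew or which animal gave which library, so p-values measure only the spread between these samples, which may be technical.

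Cells entering mitosis switch on one shared programme. FOXM1 and the DREAM and MuvB complexes time the transcription of its genes, cyclin B with CDK1 drives entry, Aurora and Polo-like kinases build the spindle, and the checkpoint holds the anaphase-promoting complex until every kinetochore is attached. In a xenograft the tumour cells are human, so mouse transcripts of these genes mark dividing host cells such as endothelial cells, fibroblasts and leukocytes. In bulk tissue, fewer dividing cells and less of a transcript per cell cannot be told apart.

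Each library was read from the 3′ ends of its transcripts and mapped separately to the mouse and the human genome. It gave 3606008 to 6850491 mouse reads and 8303617 to 18568119 human reads. Values below are normalized reads, that is, whole reads divided by one size factor per library. The reads of a member summed over all 16 libraries ran from 174 (Kif20a) to 4729 (Top2a), and the lowest count of any member in any library was 2, so single values of the low genes carry large counting error. Host tissue was not uniform. Skeletal muscle transcripts (8 genes) summed to 98962 in combination 1 and 169518 in nintedanib 4. Vehicle libraries had a median of 3042 and a highest sum of 24168, in vehicle 2. Skin and hair transcripts (10 genes) summed to 11646 in alpelisib 1. Adipocyte transcripts (6 genes) summed to 19257 in vehicle 1, 10983 in alpelisib 4 and 7354 in alpelisib 2. With nintedanib they reached at most 3796, in combination 2. Counts without the muscle-rich or skin-rich libraries stand beside the member counts that moved with them. The fat-rich libraries were left out only singly.

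The main contrast set the 8 libraries with nintedanib (both drugs, or nintedanib alone) against the 8 without it (alpelisib alone, or vehicle). It was fitted with limma over 17484 mouse genes. In that contrast 29 of the 32 mitosis genes had a log2 change below 0, where 47.5% of all genes did. Their median log2 change was -0.39, against 0.02 over all genes. Without alpelisib 1, the library rich in skin, 28 of 32 were below 0 and the median was -0.41. Not 1 of the 32 passed an adjusted p of 0.05, a mark that 0.0972% of all genes passed (17 genes), and the lowest adjusted p of a member by limma was 0.0574. At an unadjusted p under 0.05, 12 members were lower and none was higher, where 4.4% of all genes were lower at that mark. Scaled to human plus mouse reads, 25 of 32 were below 0 and 7 had that p. The median was then -0.28, against 0.12 over all genes. With the edgeR quasi-likelihood test no member was called. DESeq2 called 3 members (Ube2c, Plk1 and Ccnb2), but it called 156 genes in all, where limma called 17.

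**Figure D1:**
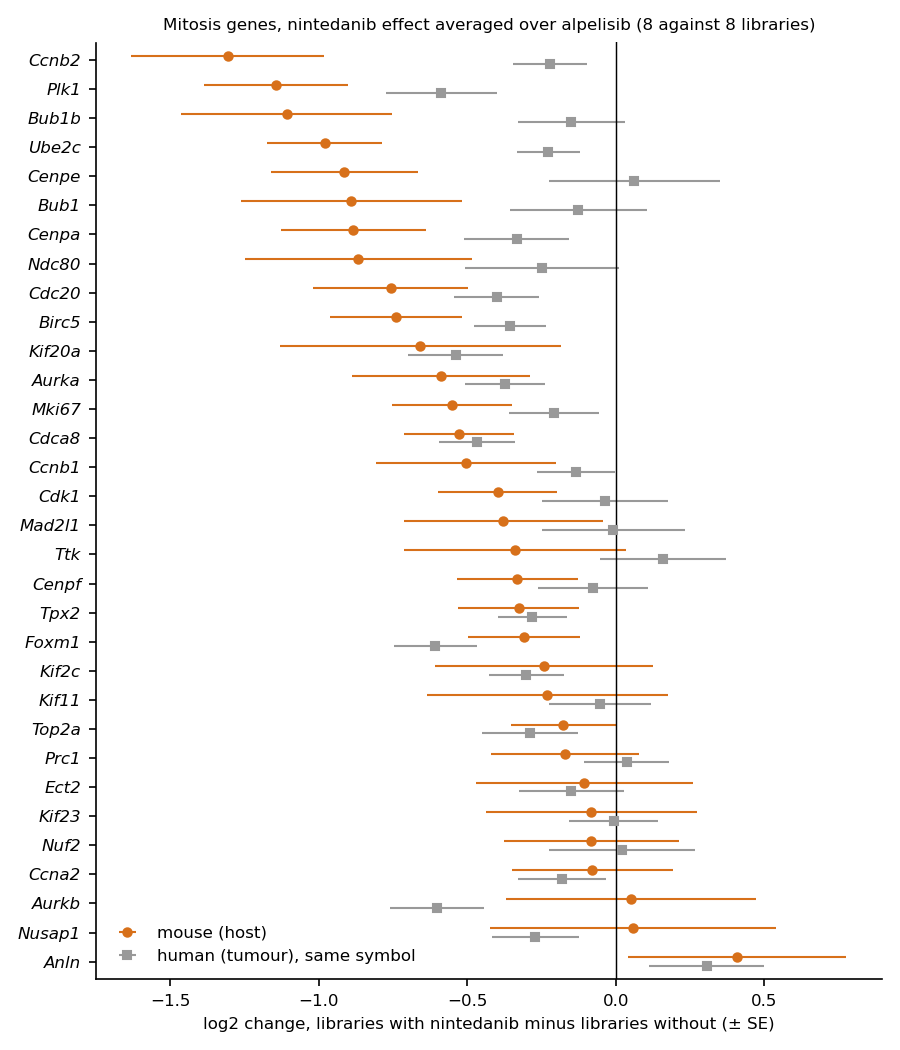
Log2 change of each of the 32 mitosis genes in libraries with nintedanib minus libraries without it (8 against 8), from limma, with bars of 1 SE. Orange circles are the mouse table and grey squares the same symbol in the human table. Of the mouse values, 29 of 32 lie below 0, with Ccnb2 and Plk1 lowest and Anln highest at 0.41.

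Both genes that drive the anaphase-promoting complex were below 0, and 6 of the 7 mitotic kinases were. Ube2c, the ubiquitin-conjugating enzyme of the anaphase-promoting complex, had 145, 97.3, 99.8 and 125 normalized reads with both drugs, 104, 67.4, 102 and 184 with nintedanib, 229, 339, 169 and 216 with alpelisib, and 180, 281, 217 and 177 with vehicle. All 4 combination libraries lay below all 4 vehicle and all 4 alpelisib libraries, and 3 of 4 nintedanib libraries did so too. The exception was nintedanib 4, a library rich in muscle that also had the fewest human reads. Ube2c averaged 116 ± 35.4 with nintedanib and 226 ± 58.2 without it (SD, n = 8 each). The log2 change was -0.98 (SE 0.19, adjusted p 0.0574 by limma).

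Cdc20, which activates the same complex at anaphase, had 78.4, 59.4, 51.6 and 50.7 normalized reads with both drugs, 34.5, 84.0, 71.5 and 146 with nintedanib, 89.7, 178, 63.3 and 158 with alpelisib, and 117, 131, 83.3 and 128 with vehicle. The combination libraries all lay below the vehicle libraries, while both single-drug groups overlapped vehicle. The log2 change with nintedanib was -0.76 (SE 0.26, adjusted p 0.357 by limma).

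Plk1, the Polo-like kinase that acts from mitotic entry to cytokinesis, had 70.2, 87.5, 40.1 and 99.3 normalized reads with both drugs, 56.0, 66.4, 48.1 and 136 with nintedanib, 149, 270, 149 and 136 with alpelisib, and 180, 192, 136 and 95.5 with vehicle. All combination libraries lay below all alpelisib libraries, and combination 4 lay just above the lowest vehicle library. Plk1 averaged 75.5 ± 31.3 with nintedanib and 163 ± 52.1 without it (SD, n = 8 each), a log2 change of -1.15 (SE 0.24, adjusted p 0.0784 by limma).

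Bub1b, the BubR1 component of the spindle checkpoint, had 14.8, 17.6, 11.5 and 10.1 normalized reads with both drugs, 2.80, 12.9, 12.9 and 26.5 with nintedanib, 32.1, 23.9, 21.7 and 21.9 with alpelisib, and 26.7, 49.8, 25.3 and 23.2 with vehicle. The combination lay below alpelisib and vehicle in every library, and again nintedanib 4 alone of its group lay within the vehicle range. Its log2 change was -1.11 (SE 0.36, adjusted p 0.304 by limma). Bub1, its partner kinase at the kinetochore, was close behind at -0.89 (SE 0.37), and Ttk, the kinase that recruits checkpoint proteins, was at -0.34 (SE 0.37).

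Cdk1 and the Aurora kinases lay nearer to 0 than Plk1, Bub1b and Bub1 did. Cdk1, the kinase of mitotic entry, had 102, 105, 102 and 46.6 normalized reads with both drugs, 104, 68.3, 60.9 and 71.9 with nintedanib, 134, 123, 146 and 91.6 with alpelisib, and 71.0, 123, 99.0 and 77.8 with vehicle. All 4 groups overlapped, and the log2 change with nintedanib was -0.40 (SE 0.20, adjusted p 0.589 by limma). Aurkb, the catalytic subunit of the chromosomal passenger complex, had 31.8, 20.9, 21.8 and 8.11 normalized reads with both drugs, 8.40, 22.1, 10.5 and 7.74 with nintedanib, 26.4, 25.0, 8.67 and 21.1 with alpelisib, and 3.69, 27.4, 6.03 and 16.4 with vehicle. All groups overlapped, at a log2 change of 0.05 (SE 0.42). Aurka, which matures the spindle poles, was at -0.59 (SE 0.30), the median of the 7 mitotic kinases.

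Among the cyclins, the B2 form was the one far from 0. Ccnb2 had 14.0, 32.6, 27.5 and 20.3 normalized reads with both drugs, 27.1, 7.38, 28.1 and 54.2 with nintedanib, 60.4, 66.5, 35.5 and 90.1 with alpelisib, and 52.6, 58.5, 74.8 and 47.8 with vehicle. The combination libraries lay below every alpelisib and vehicle library, and nintedanib 4 was once more the single nintedanib library within the vehicle range. Ccnb2 averaged 26.4 ± 14.0 with nintedanib and 60.8 ± 16.8 without it (SD, n = 8 each), a log2 change of -1.31 (SE 0.33, adjusted p 0.163 by limma). Ccnb1, the main cyclin partner of CDK1 at entry, had 68.0, 53.5, 49.3 and 21.3 normalized reads with both drugs, 18.7, 30.4, 43.4 and 59.7 with nintedanib, 75.6, 119, 31.2 and 45.4 with alpelisib, and 47.9, 61.0, 53.1 and 50.5 with vehicle. Its groups overlapped, at a log2 change of -0.50 (SE 0.30). Ccna2, the cyclin of S phase and early mitosis, was at -0.08 (SE 0.27).

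All 5 kinetochore and centromere genes were below 0 in the nintedanib contrast, with a median of -0.87. Cenpe, the kinetochore motor that brings chromosomes to the spindle equator, had 73.2, 36.6, 45.9 and 68.9 normalized reads with both drugs, 53.2, 58.1, 48.1 and 167 with nintedanib, 110, 158, 87.5 and 103 with alpelisib, and 88.5, 167, 123 and 126 with vehicle. The combination did not overlap alpelisib or vehicle, and nintedanib 4 stood well above the other 3 libraries of its group. Its log2 change was -0.91 (SE 0.25, adjusted p 0.199 by limma).

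Cenpa, the histone variant that marks the centromere, had 65.1, 90.8, 45.9 and 56.8 normalized reads with both drugs, 95.1, 35.1, 34.0 and 105 with nintedanib, 125, 128, 82.3 and 148 with alpelisib, and 94.1, 116, 90.5 and 138 with vehicle. Combination 2 lay just above the lowest vehicle library and the nintedanib group was split between low and high libraries. The log2 change was -0.88 (SE 0.25, adjusted p 0.207 by limma). Ndc80, the microtubule-binding subunit of the outer kinetochore, was at -0.87 (SE 0.38), Cenpf at -0.33 (SE 0.20) and Nuf2, which pairs with Ndc80, at -0.08 (SE 0.29).

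**Figure D2:**
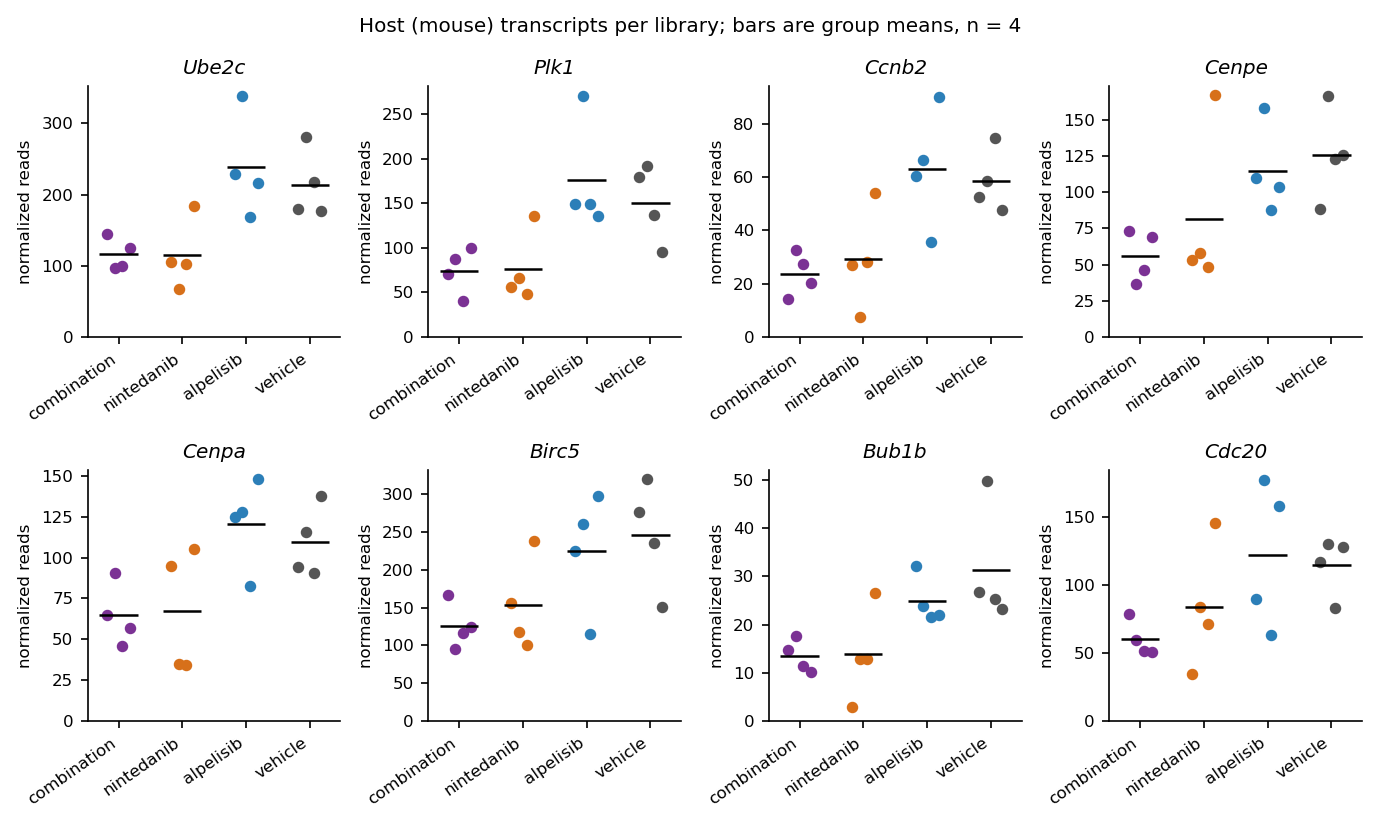
Normalized reads per library (linear axis from 0) of the 8 mitosis genes with the smallest p in the nintedanib contrast. Each point is 1 library and bars are group means of 4. In all 8 genes the highest nintedanib point is nintedanib 4, and the combination points of Ube2c, Ccnb2, Cenpe, Bub1b and Cdc20 lie wholly below the vehicle points.

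Birc5 and Cdca8, which sit with Aurkb in the chromosomal passenger complex, were below 0. Birc5 (survivin) had 167, 95.3, 116 and 124 normalized reads with both drugs, 156, 118, 101 and 238 with nintedanib, 225, 261, 114 and 298 with alpelisib, and 277, 321, 235 and 150 with vehicle. The combination overlapped vehicle and alpelisib through the lowest library of each, and nintedanib 4 lay among the higher vehicle libraries. Birc5 had a log2 change of -0.74 (SE 0.22, adjusted p 0.239 by limma), and that of Cdca8 (borealin) was -0.53 (SE 0.18).

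Mki67, which encodes the Ki-67 antigen, had 141, 112, 116 and 158 normalized reads with both drugs, 102, 133, 152 and 302 with nintedanib, 262, 318, 159 and 255 with alpelisib, and 144, 255, 189 and 168 with vehicle. The combination lay just below alpelisib and overlapped vehicle through 1 library of each. The log2 change was -0.55 (SE 0.20, adjusted p 0.407 by limma). Top2a, the topoisomerase that untangles sister chromatids, had 302, 204, 213 and 283 normalized reads with both drugs, 268, 250, 248 and 389 with nintedanib, 366, 426, 214 and 298 with alpelisib, and 200, 396, 351 and 232 with vehicle. All groups overlapped, and the log2 change was -0.18 (SE 0.18).

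Spindle and cytokinesis genes had the group medians nearest to 0, at -0.24 and -0.11. The 4 spindle genes ran from -0.33 (Tpx2, which activates Aurora A on microtubules) to 0.06 (Nusap1), with Kif2c at -0.24 and Kif11, the motor that separates the poles, at -0.23. The 5 cytokinesis genes ran from -0.66 (Kif20a, SE 0.48) to 0.41 (Anln, anillin, SE 0.37), with Prc1 at -0.17, Ect2 at -0.11 and Kif23 at -0.08. No gene of these groups had an unadjusted p under 0.05 in the nintedanib contrast. Mad2l1, the checkpoint protein that binds Cdc20, was at -0.38 (SE 0.34).

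Foxm1, the transcription factor of the programme, was highest with alpelisib alone. It had 44.4, 47.0, 51.6 and 31.4 normalized reads with both drugs, 44.8, 39.7, 44.5 and 50.9 with nintedanib, 87.8, 79.0, 61.5 and 67.4 with alpelisib, and 47.9, 47.3, 39.8 and 30.0 with vehicle. All 4 alpelisib libraries stood above all 12 others, and the other 3 groups overlapped each other. Alpelisib against vehicle gave Foxm1 a log2 change of 0.84 (SE 0.27), which did not pass the adjusted p of limma, and the nintedanib contrast gave -0.31 (SE 0.19). The interaction, which tests whether the combination departs from the sum of the single drugs, was -0.90 for Foxm1 (SE 0.38), the only member lower at an unadjusted p under 0.05, where 1.5% of all genes were. Without nintedanib 4, without alpelisib 1 or without vehicle 4, no member reached that p in the interaction.

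The pairs of groups share libraries, so their values are given side by side and not as independent evidence. With both drugs against vehicle, 27 of 32 members were below 0, against 46.9% of all genes, with a median of -0.36. No member passed the adjusted p in that pair (0.0515% of all genes did), 9 were lower at an unadjusted p under 0.05 (3.39% of all genes), and 5 did not overlap vehicle (1.84% of all genes). When values were scaled to human plus mouse reads, 16 of 32 were below 0 and the median was -0.035, against 0.32 over all genes. No member then had an unadjusted p under 0.05 in that pair. With libraries left out one at a time, 20 to 27 were below 0, and the median ran from -0.57 without vehicle 1 to -0.21 without vehicle 2, where 5 had an unadjusted p under 0.05.

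With nintedanib alone against vehicle, 22 of 32 were below 0, against 47.9% of all genes, with a median of -0.21. None passed the adjusted p there (0.0% of all genes), 7 were lower at an unadjusted p under 0.05 (2.97% of all genes), and only Ttk did not overlap vehicle (1.74% of all genes). Scaled to human plus mouse reads, 18 of 32 were below 0, with a median of -0.072 against 0.14 over all genes, and 3 had an unadjusted p under 0.05. The median was -0.41 without nintedanib 4, -0.39 without vehicle 1 and -0.10 without vehicle 2. Members at an unadjusted p under 0.05 numbered 3 without nintedanib 2, 4 without nintedanib 3 and 4 without vehicle 2.

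Alpelisib alone left most members at or above vehicle. Only 7 of 32 were below 0, against 48.3% of all genes, the median was 0.17, and none passed the adjusted p (0.0% of all genes). This rested in part on single libraries: 14 of 32 were below 0 without vehicle 1 (median 0.028) or without alpelisib 2 (median 0.011), while the median was 0.33 without vehicle 2, 0.31 without alpelisib 3 and 0.27 without alpelisib 4. It was 0.40 when values were scaled to human plus mouse reads, where the median of all genes was 0.23. Foxm1 and Aurka (0.92, SE 0.42) were higher at an unadjusted p under 0.05, where 2.01% of all genes were, and Foxm1 did not overlap vehicle (1.15% of all genes). Between 1 and 4 members had that p, in either direction, when single libraries were left out. Over both levels of nintedanib, the alpelisib contrast had 11 of 32 members below 0, against 47.7% of all genes, with a median of 0.10 and a lowest adjusted p of 0.877 by limma (0.0% of all genes passed). Without vehicle 1, 16 of 32 were below 0, and leaving out single libraries moved the median between 0.019 and 0.24. Scaled to human plus mouse reads, 3 of 32 were below 0. The member median was then 0.31, against 0.21 over all genes. In that contrast Prc1, the microtubule bundler of the central spindle, was at -0.69 (SE 0.25), the only member lower at an unadjusted p under 0.05, where 2.24% of all genes were. Without combination 4, 6 members had that p in either direction, and without vehicle 2, 4 had.

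The combination was lowest when set against alpelisib alone, where 30 of 32 members were below 0 (48.5% of all genes) with a median of -0.62. None passed the adjusted p (0.0% of all genes), 13 were lower at an unadjusted p under 0.05 (2.99% of all genes) and 9 did not overlap (1.49% of all genes). Ndc80 was at -1.65, Plk1 at -1.25 and Mki67 at -0.88, and the lowest adjusted p was 0.612 by limma. Scaled to human plus mouse reads, where the median of all genes was 0.09, 28 of 32 were below 0 and 6 had an unadjusted p under 0.05. Without alpelisib 1, 29 were below 0 and 11 had that p. Set against nintedanib alone, the combination had 17 of 32 members below 0 (48.7% of all genes) with a median of -0.03, and 1 member, Prc1 at -1.08, was lower at an unadjusted p under 0.05 (2.42% of all genes). That median was 0.16 when values were scaled to human plus mouse reads, where the median of all genes was 0.18, and 0.17 without nintedanib 4, where 12 of 32 were below 0.

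The interaction had 26 of 32 members below 0, against 51.1% of all genes, and a median of -0.25. Without nintedanib 4, 17 of 32 were below 0, with a median of -0.20, and without both muscle-rich libraries 19 were. Leaving out single libraries moved the median between -0.45 (without alpelisib 3) and -0.11 (without vehicle 1). No member passed the adjusted p in the interaction (0.0% of all genes) or against nintedanib alone (0.0% of all genes). Outside the nintedanib contrast, edgeR and DESeq2 called no member either.

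**Figure D3:**
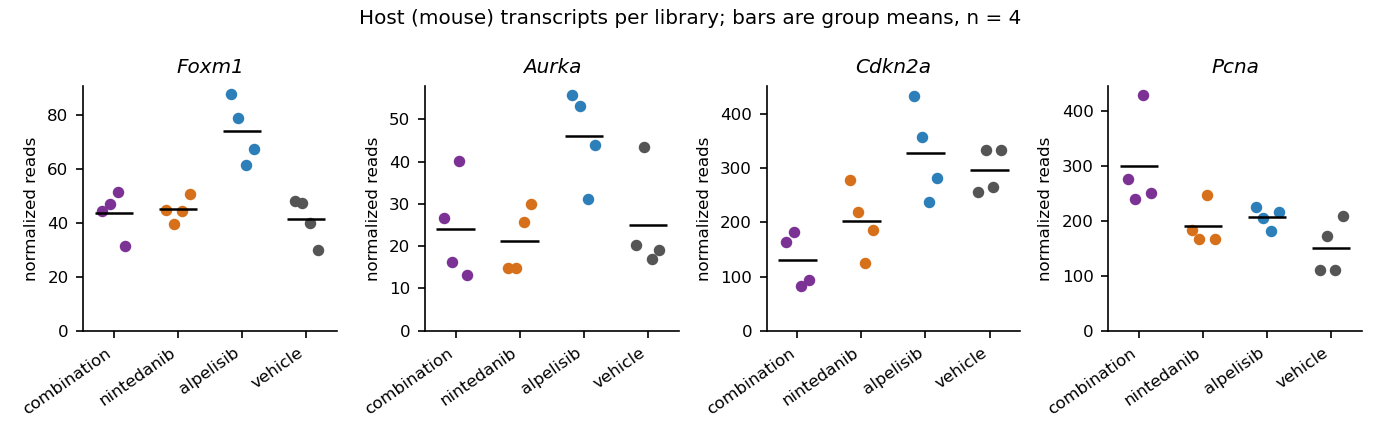
Normalized reads per library (linear axis from 0) of Foxm1, Aurka, Cdkn2a and Pcna in the mouse table, with bars for group means of 4. Foxm1 is high in the 4 alpelisib libraries, at 61.5 to 87.8, and lies between 30.0 and 51.6 in the other 12.

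Other cell-cycle genes were taken from lists by function. Of 69 further mitosis genes, 64 were in the mouse table, and 49 of these were below 0 in the nintedanib contrast with a median of -0.31. In that fit none was called (0.0972% of all genes were), and 9 were lower at an unadjusted p under 0.05 (4.4% of all genes). The smallest p among them was that of Incenp, the scaffold of the passenger complex, at -0.73 (SE 0.17, adjusted p 0.115 by limma). Incenp had 156, 122, 138 and 100 normalized reads with both drugs, 85.8, 86.7, 105 and 186 with nintedanib, 237, 238, 169 and 212 with alpelisib, and 203, 184, 200 and 150 with vehicle. Combination 1 lay just above the lowest vehicle library, and nintedanib 4 lay above the vehicle libraries at 150 and 184. The other libraries with nintedanib lay under the lowest vehicle library. Incenp was called in 3 of 32 alternatives, with adjusted p-values of 0.0181 by DESeq2, and by limma 0.0146 without nintedanib 4 and 0.0104 without both muscle-rich libraries, and its adjusted p ran from 0.0104 to 0.543 over the 32. Cdca3 was at -1.13 and was called by DESeq2 alone (adjusted p 0.0270, against up to 0.742 elsewhere), Racgap1 at -0.74 and Pttg1 (securin) at -0.65.

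DNA replication genes were divided about 0 in the nintedanib contrast, with 16 of 32 below it and a median of -0.02. In the alpelisib contrast 26 of 32 were above 0 with a median of 0.27, 5 were higher at an unadjusted p under 0.05 (3.04% of all genes), and none was called. Fen1, the nuclease that trims Okazaki fragments, had the smallest p of the list in the nintedanib contrast. It had 48.1, 69.2, 47.0 and 18.2 normalized reads with both drugs, 51.3, 25.8, 38.7 and 46.4 with nintedanib, 64.2, 90.5, 46.8 and 70.5 with alpelisib, and 48.9, 67.2, 65.2 and 73.7 with vehicle. The groups overlapped, at a log2 change of -0.67 (SE 0.25, adjusted p 0.428 by limma). Cdt1 was at -0.37 and Lig1 at -0.30. Pcna, the sliding clamp of the replication fork, had 276, 240, 429 and 250 normalized reads with both drugs, 184, 166, 247 and 167 with nintedanib, 226, 205, 182 and 216 with alpelisib, and 111, 173, 110 and 209 with vehicle. The combination libraries lay above all vehicle and alpelisib libraries. The log2 change of Pcna was 0.57 in the alpelisib contrast (SE 0.17, adjusted p 0.877 by limma) and 0.43 in the nintedanib contrast (SE 0.17).

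Of 22 genes of G1 and cell-cycle exit, 11 were below 0 in the nintedanib contrast with a median of 0.02, and none was called in that fit. The smallest p was that of Cdkn2a, the locus of the p16 inhibitor and ARF, with 164, 182, 82.6 and 94.3 normalized reads with both drugs, 279, 219, 125 and 187 with nintedanib, 434, 358, 238 and 282 with alpelisib, and 256, 333, 266 and 334 with vehicle. The combination did not overlap alpelisib or vehicle. Cdkn2a had a log2 change of -0.98 (SE 0.19, adjusted p 0.0574 by limma). It was called in 9 of 32 alternatives, among them quantile normalization (adjusted p 0.0436 by limma) and DESeq2 (0.00226), and its adjusted p ran from 0.00226 to 0.297 over the 32. Lin52, a subunit of the DREAM complex, was at -0.98 (SE 0.41), Cdkn2b at -0.71 (SE 0.33) and Rbl2, the p130 pocket protein, at 0.42 (SE 0.17).

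Markers of endothelial cells had the same sign as most of the mitosis genes. All 10 of 10 were below 0 in the nintedanib contrast with a median of -0.67. At an unadjusted p under 0.05, 8 were lower (4.4% of all genes), and 2 were called (0.0972% of all genes). Esam, an adhesion molecule of endothelial junctions, fell by 0.82 on the log2 scale (adjusted p 0.0343 by limma), and Cdh5, the VE-cadherin gene, fell by 0.91 (adjusted p 0.0479 by limma). The 10 genes summed to 1959 to 3075 with both drugs, 1804 to 4053 with nintedanib, 3407 to 4465 with alpelisib and 3480 to 4468 with vehicle, and none of the 10 was at 0 in any library. The highest nintedanib sum was again that of nintedanib 4. Their part in the values of the mitosis genes was not tested.

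Other marker lists were measured in the same contrast, and none of their genes was called. All 7 pericyte genes were below 0 with a median of -0.35, and 2 were lower at an unadjusted p under 0.05 (4.4% of all genes). Of 8 fibroblast genes 6 were above 0, with a median of 0.25. Of 7 NK and T cell genes, with a median of 1.57, 6 were above 0 and all 6 were higher at an unadjusted p under 0.05. The share of all genes higher at that p is not given here. The 7 genes summed to 73.2 to 490 with both drugs, 44.3 to 403 with nintedanib, 28.3 to 75.2 with alpelisib and 17.4 to 59.0 with vehicle. The 5 neutrophil genes measured were all above 0, and 4 of 7 macrophage genes were below it. All 6 adipocyte genes were below 0 with a median of -1.62, and all 8 skeletal muscle genes were above 0 with a median of 1.64. The part of these lists in the result was not tested.

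The summed level of the 32 mitosis genes was 2141, 1594, 1603 and 2359 normalized reads with both drugs, 2046, 2030, 1869 and 3032 with nintedanib, 3275, 3694, 2103 and 2835 with alpelisib, and 2127, 3380, 2759 and 2510 with vehicle. Combination 1 and 4 and nintedanib 4 lay within the vehicle range and the other libraries with nintedanib lay under it. Of the alpelisib libraries, 1 lay above and 1 just under that range. Without nintedanib 4, 3 members were called in the nintedanib contrast: Ube2c fell by 1.11 (adjusted p 0.00893), Plk1 by 1.30 (adjusted p 0.0146) and Cenpe by 1.12 (adjusted p 0.0228) on the log2 scale, all by limma. Over all genes, 17 were called with every library in, and 9 to 31 when each library was left out. Without both muscle-rich libraries Ube2c, Plk1 and Cenpe were again called. Calls over all genes also rose in that fit, as counted in the last section. The adjusted p of these genes over 32 alternative settings ran from 0.00181 to 0.327 for Ube2c, 0.00387 to 0.317 for Plk1 and 0.0138 to 0.519 for Cenpe.

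**Figure D4:**
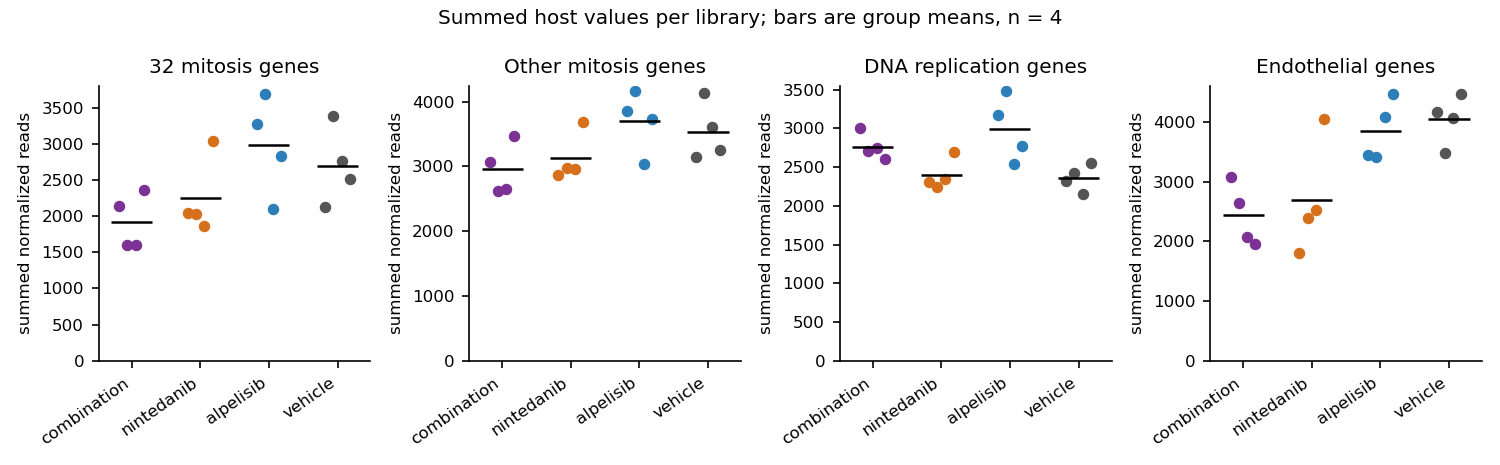
Summed normalized reads per library (linear axis from 0) for the 32 mitosis genes, 64 other mitosis genes, 32 DNA replication genes and 10 endothelial genes in the mouse table, with bars for group means of 4. Nintedanib 4 is the highest nintedanib library in each panel, at 3032 for the 32 mitosis genes and 4053 for the endothelial genes.

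Mitosis genes are conserved, and the tumour cells expressed them too, so reads of human transcripts could be counted as mouse. The 32 symbols summed to 20827 to 33563 normalized reads in the human table with both drugs, 30291 to 34935 with nintedanib, 27922 to 32943 with alpelisib and 30780 to 36759 with vehicle. Mouse reads of a member came to between 1.71% (Aurkb) and 76.0% (Cenpa) of its human reads over all libraries, with a median of 8.22%, and 18 members were under 10%. For 15 epithelial genes of the tumour, which host skin also expresses, the same ratio ran from 0.0483% to 8.24% with a median of 0.864%. All 32 members were above that median and 16 were above its highest value.

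Mouse and human log2 values of the same symbol were correlated over the 16 libraries, in 32 tests with permutation p-values adjusted over the 32. Pearson's r was positive for 30 members, and 6 passed an adjusted p of 0.05 for Pearson's r. These were Anln (r = 0.91), Kif23 (0.84), Prc1 (0.74), Ect2 (0.71), Cenpf (0.70) and Top2a (0.69), with permutation p-values of 0.00032 to 0.0101 after adjustment, of which that of Anln rests on the smallest p that the permutations can give. Spearman's rho was 0.90 for Anln, 0.83 for Prc1 and 0.74 for Top2a, the 3 that passed by rank, and 0.55 for Kif23, 0.65 for Ect2 and 0.58 for Cenpf. Without the 2 libraries farthest from the human median, r was 0.88 for Anln, 0.73 for Kif23, 0.58 for Prc1, 0.62 for Ect2, 0.52 for Cenpf and 0.66 for Top2a. Taken as deviations from the group means, r was 0.91 for Anln, 0.85 for Kif23, 0.65 for Prc1, 0.73 for Ect2, 0.66 for Cenpf and 0.71 for Top2a.

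The genes at the head of the nintedanib contrast were not among these 6. Of the 8 members with the smallest p there, Pearson's r was 0.32 for Ube2c, 0.36 for Plk1, 0.43 for Ccnb2 and 0.40 for Cenpe. It was 0.12 for Cenpa, 0.59 for Birc5, 0.25 for Bub1b and 0.48 for Cdc20. Bub1 and Cdca8, also below 0, had r of 0.58 and 0.56, and Cdk1, nearer to 0, had -0.26. None of these passed the adjusted permutation p, the lowest being 0.0640 for Birc5. Taken as deviations from the group means, r was positive for 25 of 32 members. Outside the 6 it was 0.73 for Ttk, 0.71 for Bub1, 0.60 for Ccna2, 0.56 for Aurka and 0.55 for Cenpe. For the other head genes it was 0.30 (Birc5), 0.19 (Bub1b and Cdc20), 0.15 (Ccnb2), -0.08 (Ube2c), -0.11 (Plk1) and -0.40 (Cenpa). These values of r were not tested. The 6 genes that passed by Pearson's r had a median log2 change of -0.14 in the nintedanib contrast, with 5 of 6 below 0. The other 26 had a median of -0.54, with 24 of 26 below 0. Anln, the highest member in that contrast at 0.41, was also above 0 in the human table at 0.31. The part of human reads in these values was not tested directly. With the human value of each gene as a covariate, 27 of 32 members were below 0 in the nintedanib contrast, and with human reads subtracted at a rate of 0.864%, 29 of 32 were. That rate was the median ratio of the 15 epithelial genes. The members' own ratios had a median of 8.22% and a lowest value of 1.71%. For most members the subtraction could therefore change little, so its count does not measure the part of human reads. The covariate moved the pairs of groups further. With both drugs against vehicle 20 of 32 were then below 0 and 5 had an unadjusted p under 0.05, and against nintedanib alone 10 of 32 were below 0 with a median of 0.25. Against alpelisib alone 25 were below 0 and 7 had that p, and the interaction had 19 below 0 with a median of -0.040.

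**Figure D5:**
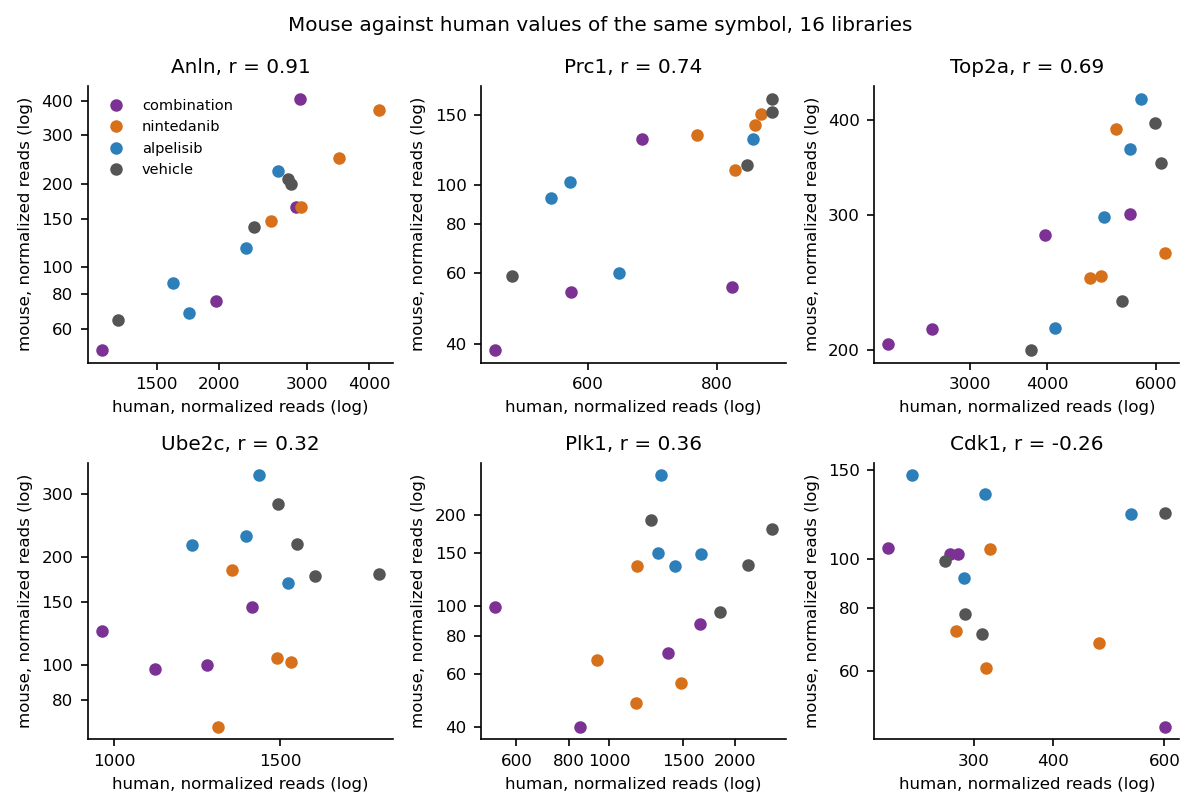
Mouse against human normalized reads (both axes log) of the same symbol in 16 libraries, coloured by group, with Pearson's r of the log2 values. Anln, Prc1 and Top2a lie along a rising line, while Ube2c, Plk1 and Cdk1 (r from -0.26 to 0.36) are scattered.

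In the human table, the same 32 symbols in the nintedanib contrast had 27 below 0 with a median of -0.21, against 45.8% of all human genes below 0 and a median of 0.03. None was called by limma (0.0% of human genes), and 11 were lower at an unadjusted p under 0.05 (6.96% of human genes). With both drugs against vehicle all 32 were below 0 in the human table (46.5% of human genes) with a median of -0.44. None was called there (0.0% of human genes), and 14 were lower at an unadjusted p under 0.05 (3.69% of human genes). In the nintedanib contrast, Plk1 was at -1.15 in the mouse table and -0.59 in the human table. The mouse and human values were -0.98 and -0.23 for Ube2c, and -1.31 and -0.22 for Ccnb2. Foxm1 was at -0.31 in the mouse table and -0.61 in the human table, and Aurkb was at 0.05 in the mouse table and -0.60 in the human table. The 2 tables were normalized separately and the difference between species was not tested.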

How the data were processed

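The values deposited for each gene in each library are signal, normalized by the authors. Per the submitters' processing notes, TopHat and the builds hg19 and mm10 were used, and per the labels' protocols libraries were made with a QuantSeq 3′ kit and read at 75 bases. Counting, strand, annotation and scaling are not given in the sources used. In every library 100% of the authors' values were whole multiples of 1 step within 0.01 read, so whole reads were recovered. The plan had assumed that the tables might hold counts. They did not, so its branch for normalized values was used.

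The scale was log2(value + 1), so fold changes of low genes are understated. A gene was tested where 4 or more libraries had a value of 1 or more (17484 mouse and 17663 human genes). One mean per group was fitted to all 16 libraries with limma 3.58.1 (lmFit, eBayes with trend, 2-sided) in R 4.3.3, with Benjamini-Hochberg adjustment over all genes tested and a threshold of 0.05. All 32 mitosis genes passed the filter. Correlations used 100000 permutations. The members and gene lists were chosen with earlier results of these data known.

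Genes given library by library were the 8 members with the smallest p in the nintedanib contrast and a mean value of at least 10, and Mki67, Top2a, Cdk1, Ccnb1, Foxm1, Aurkb, Plk1 and Cdc20. Genes of other lists were named by smallest p, up to 4 a list. Of these, Incenp, Fen1, Pcna and Cdkn2a were given library by library. The fit was tested on simulated data (17067 genes). In the nintedanib contrast it recovered 65 of 100 genes moved by log2 1 and 100 of 100 moved by log2 2, with 14 unchanged genes among 179 calls. The moved genes were drawn from those with a mean value at or above the median, so recovery of lower genes was not measured. Alternatives were other scalings and filters, a pseudocount of 0.1, no trend, replicate number as a block, only the groups compared, recovered reads with edgeR 4.0.16, limma-voom or DESeq2 1.42.0, corrections for human reads, and leaving out libraries. Both checks of the correlations were chosen after seeing the data: leaving out the farthest libraries and removing group means. Reads carry no molecular identifiers, so depth covers counting error only.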

Additional observations from a re-analysis of the deposited data

Results flagged for a closer look

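In groups of 4 libraries, 148 checks were made of whether 1 library stood apart, as the gap to its nearest neighbour over the range of the group against Dixon's limit of 0.829. Of these, 12 passed, where chance gives about 1 in 20. Nintedanib 4, one of the libraries rich in skeletal muscle, was the high library in 4 of them: for Cenpe (gap 0.915 of the range, 167 against 58.1 normalized reads in the next library), Top2a (0.863), the sum of the 32 mitosis genes (0.848, 3032 against 2046) and the sum of the other mitosis genes (0.873, 3677 against 2976). That library also had the fewest human reads (8303617) and the highest mouse share of reads (34.0%). Its NK and T cell sum (403) was the highest of its group. Combination 1, also rich in muscle, was not flagged, and what set nintedanib 4 apart was not tested. In the combination group, combination 4 was low for Cdk1 (0.947) and high for Ect2 (0.887), and combination 2 was low for Ndc80 (0.963). In the alpelisib group, alpelisib 2 was high for Plk1 (0.898), alpelisib 1 was high for Bub1 (0.855), and alpelisib 3 was low for Kif23 (0.848). In the vehicle group, vehicle 2 was high for Aurka (0.873) and Bub1b (0.867).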

How the results depend on the processing

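The median log2 change of the members in the nintedanib contrast ran from -0.48 to -0.28 over 32 alternatives, with 25 to 31 members below 0. The lowest count came from scaling to human plus mouse reads, which raised the median of all genes by 0.10 in that contrast and by 0.29 with both drugs against vehicle. Relative to all genes, the member median was then -0.40 and -0.35. Members called in the nintedanib contrast, 0 in the analysis given above, were 1 with quantile normalization, 1 with edgeR and no filter, 3 with DESeq2 and 3 without the muscle-rich libraries, and 0 to 3 when each library was left out. Ube2c was the member called with quantile normalization (adjusted p 0.0401), with edgeR and no filter (0.0452), and without alpelisib 3 (0.0367) or combination 1 (0.0351). In the other 7 comparisons no member was called under any alternative run. Top2a was at 0.036 in place of -0.18 with the human value as covariate.

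Counts of all genes called moved more, and the causes were not tested. In the nintedanib contrast, 17 genes became 3 with human plus mouse scaling, 4 without the trend, 32 with edgeR and no filter, 156 with DESeq2, 10 with limma-voom, 54 without the muscle-rich libraries, 11 with human reads subtracted, and 9 to 31 when each library was left out. With both drugs against vehicle, 9 became 5 with mouse scaling, 1 with human plus mouse scaling, 0 without the trend, 15 at a value of at least 10, 0 with only the groups compared, 14 with edgeR and no filter, 75 with DESeq2, 3 with limma-voom, 24 without the muscle-rich libraries, 4 with human reads subtracted, and 0 to 16 when each library was left out. With nintedanib against vehicle, 0 became 2 with mouse scaling, 1 with only the groups compared, 29 with DESeq2, 3 without the muscle-rich libraries, and 0 to 3 when each library was left out. With alpelisib against vehicle, 0 became 1 with DESeq2. With both drugs against alpelisib, 0 became 26 with DESeq2, 1 without the muscle-rich libraries, and 0 to 1 when each library was left out. No fit with only the groups compared exists for the averaged contrasts or the interaction, which use all groups.

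Same-numbered libraries shared little variation: over 24 pairs, the correlation of deviations from group means ran from -0.29 to 0.17, with 3 over 0.1. The labels do not say what a replicate number means, so these values cannot settle whether the libraries were paired. With the replicate block, 3 genes in place of 9 were called with both drugs against vehicle, 12 in place of 17 in the nintedanib contrast, and no member was. Cdkn2a was then called (adjusted p 0.0127 by limma). Depth limits the low genes most, since a member had as few as 2 reads in a library.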
